A study of Mus musculus with 2 samples.

Results

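The report covers 199 processed pseudogenes that gave at least 200 small RNA reads of 24 to 32 nt in mouse testes, out of 9940 processed pseudogenes in GENCODE M21. They were chosen by that read number, summed over both strands and over 2 tables of read sequences, with each read matched exactly and shared equally over its places. A place is a position in GRCm38, within an annotated transcript, where a read's first base can lie. The choice used the number of reads, so the read totals describe the members and support nothing further. Since a read with many places counts for less, the number of places entered the choice too, and the shares of 1-place reads given below are in part shaped by it. Strand, first bases and likeness to a parent gene were not used to choose the members. Gm18009 and Gm18609 were left out by the rule. Of all processed pseudogenes, 5965 had some read of this size. Just inside the limit were Gm6457 with 200 reads, Gm12138 with 201.3 and Gm9843 with 202.0, and just outside it Gm15032 with 198.1, Gm6867 with 196.2 and Gm47103 with 195.2.

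The libraries were made from testis RNA of 23 dpp mice on C57BL/6, either Stambp-ps1+/- or Stambp-ps1-/- by their labels, from which a fraction of 15 to 40 nt was cloned. How the allele was made and how many mice went into a library are not given in the labels. Both tables belong to the Stambp-ps1-/- sample by the record, although one has KO and the other het in its name. They go by these words here (KO-named, het-named), and neither was put in a genotype group. Each table is 1 library, so no test between them was possible, and intervals are exact 95% intervals that cover counting error alone. The tables held 54384974 and 62773871 reads, and 79.3% and 74.8% of them were 24 to 32 nt long. Markers of meiotic and later germ cells (Mir34b, Mir34c and Mir449a) summed to 6287 and 4596 reads per 1000000 reads (RPM), and those of testis somatic cells (Mir202, Mir143 and Mir10b) to 27996 and 22877 RPM. Blood markers (Mir451a, Mir223 and Mir142) summed to 63.7 and 43.1 RPM, and Mir122 of the liver had 0 reads in both, which allows up to 0.0552 and 0.0478 RPM. All 3 lists that were detected were higher in the KO-named table, and their part in the differences below was not tested. In such bulk RNA, fewer cells of a type and less RNA per cell cannot be told apart.

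Processed pseudogenes are copies of mRNAs that were reverse transcribed and put back into the genome, usually without introns or a promoter. piRNAs are germ cell small RNAs through which PIWI proteins find complementary RNA, and they mostly begin with U. In the ping-pong cycle a PIWI protein cuts a target opposite base 10 of its piRNA, so that the new piRNA has A at base 10 and overlaps its partner by 10 nt. A pseudogene transcribed in reverse can give piRNAs antisense to its parent mRNA.

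The sequences below come from members that show the kinds of match found, and are written 5′ to 3′ with T for U. Each is the most abundant read of at most 30 nt among the 1-place reads of the strand shown. For Gm10169 no such read had 1 place, so all its antisense reads of that length were considered. A read equal to the parent mRNA has a place there too, so a 1-place read differs from the parent by this choice. The first 6 lie antisense to a pseudogene and the seventh lies in its sense direction. Capitals mark bases that differ from the parent mRNA or its complement, and lower case bases are equal.
Gm7787, parent Spin1: tAgctgatccgagatgttgcaactctatc
Gm12904, parent Ago2: TaaggacttgagatggacttctgtacaGt
CT025671.2, parent Pphln1: tcaacatgactAtaatatctGctgtagcct
Gm9731, parent Ccnq: tAgggaAccggcctctcctTggcAcTc
Plk-ps1, parent Plk1: tctgagatctcgaagcatttgCTgaagcct
Gm10169, parent Mif: ttactgtagttgcggttctgggcacc
Gm13815, parent Rps27a: tcgagagtgtccttctgatgaatgtggtC
Positions are counted from 1 at the read's 5′ end, with the read's base first and the base on the parent last. The Gm7787 read (chr9:67748495-67748523, plus strand, GRCm38) had 1 change, A2C. The Gm12904 read (chr4:123838165-123838193, minus strand) had T1G and G28C, and the CT025671.2 read (chr17:66227848-66227877, plus strand) had A12G and G21A. The Gm9731 read (chr8:27296100-27296126, minus strand) had 5 changes, A2C, A7G, T20C, A24T and T26G. The Plk-ps1 read (chr5:35554369-35554398, minus strand) had C22G and T23C. The Gm10169 read (chr7:29965333-29965358, plus strand) had none, so it matched 2 places, and its counts were 4321 (KO-named) and 4803 (het-named). The Gm13815 read (chr2:92561570-92561598, plus strand) had C29G. All 7 lay opposite or within the coding part of the parent mRNA.

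The members fell into 3 classes by strand. In 40 at least 90% of the reads were antisense (called mainly antisense), in 82 at most 10% were (mainly sense), and 77 lay between (mixed). Over all 4552 annotated genes with at least 200 reads, 5.51% were mainly antisense and 67.3% mainly sense, beside 20.1% and 41.2% of the members. By annotated type, 2.896% of 3384 protein-coding genes were mainly antisense. The share was 15.97% of 238 lincRNA genes and 17.59% of 108 genes annotated as antisense. It was 15% of 20 transcribed processed pseudogenes and 38.46% of 26 unprocessed pseudogenes. A share above that of all genes was thus not particular to the members. The 40 mainly antisense members held 70.8% of the 515541 reads of the members, the 77 mixed ones 16% and the 82 mainly sense ones 13.3%. The 199 members are not independent of each other: 127 of them fell into 24 families. Members were linked when at least 50% of the reads of either also matched the other. A family is a chain of such links, so not every pair in it shared that much. With 1 member per family, 28 mainly antisense and 57 mainly sense members remained. As a whole the members made up 0.601% (KO-named) and 0.547% (het-named) of the reads of that size, and 93.4% of their reads came from sequences found in both tables.

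**Figure D1:**
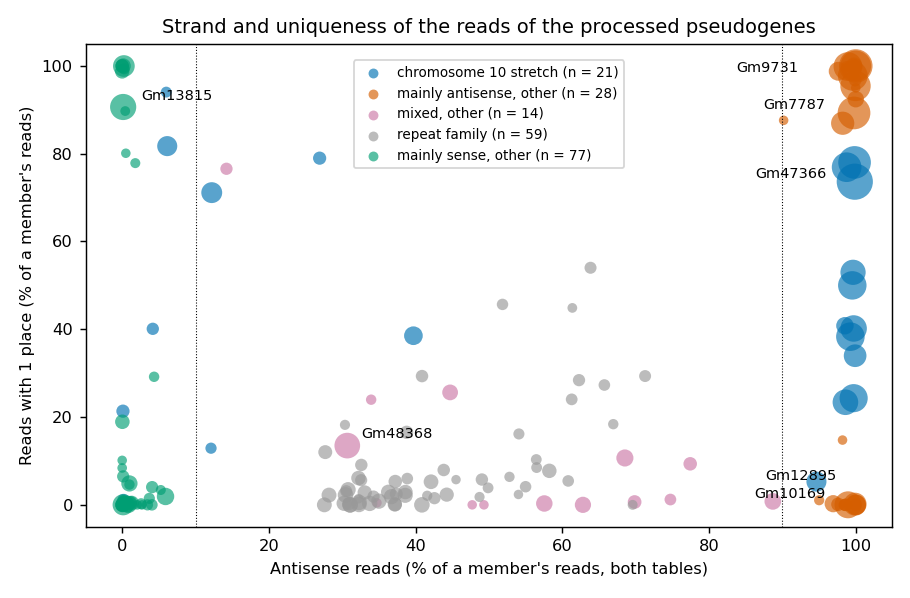
Each point is 1 of 199 members, placed by the percent of its reads that were antisense (x) and the percent with 1 place (y), with the area growing with the read number; dotted lines mark 10% and 90%. Members with many reads sit at the right edge, with Gm7787 at 89.3% and Gm10169 at 0.00724% 1-place reads, and most mainly sense members lie at the lower left.

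A stretch of chromosome 10 held 21 members and 35.0% of all member reads. It ran from 85726612 to 86623999, and 12 of its members were mainly antisense, 4 mixed and 5 mainly sense. All 12 mainly antisense members there lacked an alignment of 100 bases to any coding transcript, so no parent gene can be named for them. Gm47366 (chromosome 10, 85764265 to 85765762, minus strand) had the most reads of all members, with counts of 22806 (KO-named) and 22046 (het-named), or 419 (414 to 425) and 351 (347 to 356) RPM. Of its reads 99.9% were antisense, 73.6% had 1 place and 89.7% began with U. Gm47365 lies within the same span, and all of its reads, 279 and 231 RPM, were reads of Gm47366 too. Gm47367, its neighbour, had 185 and 162 RPM and 98.8% antisense reads.

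The direction of the reads on the chromosome changed along this stretch. Near 85764265 to 85767577 the 3 members lie on the minus strand, and 99.5% of 65044 reads came from the plus strand. At 86569933 to 86575849, 5 members (Gm48448, Gm48450, Gm48451, Gm48454 and Gm48460) lie on the plus strand, and 0.534% of 60397 reads came from the plus strand. At 86620651 to 86623999, Gm48473, Gm48474 and Gm48475 lie on the minus strand again, and 99.4% of 34555 reads came from the plus strand. In each of these blocks the reads thus ran opposite to the annotated pseudogenes. Copies in different blocks shared sequence: 60.5% of the reads of Gm48454 also matched Gm48474, 67.7% of those of Gm48473 matched Gm47366, and 75.8% of those of Gm47006 matched Gm47367. In between, Gm48464, Gm48465 and Gm48466 were mixed, with 39.7%, 12.2% and 26.9% antisense reads. Gm48450 had 162 and 136 RPM, Gm48451 163 and 132 RPM, and Gm48474 157 and 125 RPM. These 3 had 38.3%, 50% and 24.3% 1-place reads, so their levels rest in part on the equal sharing of reads.

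Outside that stretch 28 members were mainly antisense, with 38.9% of the member reads, and 21 of them aligned in the same direction to the coding sequence of a parent. Gm43959 (chromosome 6, 85111693 to 85112269) had 17219 and 15932 reads, 317 and 254 RPM. None of its reads was sense, 99.98% had 1 place, and all lay within exons of the lincRNA gene Gm5878 on the opposite strand. Its best alignment was to Gm5890, at 75.6% identity. Gm7787 (chromosome 9, 67748077 to 67748764), a copy of Spin1, whose protein reads methylated histone H3, had 294 and 223 RPM, with 99.8% antisense reads. Gm48009 (chromosome 13, 49890423 to 49892868) had 220 and 181 RPM, all antisense and all with 1 place, over 49 of its 49 windows of 50 nt. Gm12904 (chromosome 4, 123838104 to 123839502), a copy of Ago2, which encodes the Argonaute that cuts targets of small RNAs, had 211 and 171 RPM. It lies opposite to 1700121C08Rik, and 95.4% of its reads had 1 place. CT025671.2 (chromosome 17, 66227249 to 66228027), a copy of Pphln1, a subunit of the HUSH silencing complex, had 189 and 164 RPM. Gm9731 (chromosome 8, 27296055 to 27296801), a copy of the cyclin gene Ccnq, had 158 and 146 RPM, and its median read was 27 nt long, beside 29 nt for Gm7787. Of the 7 without such a parent, Gm12895, Gm12896, CT025671.5 and Gm18329 aligned to no coding transcript, Gm18716 and Gm37317 to one on the opposite strand and Gm17205 to untranslated sequence. Of the 28, 8 lie opposite to an annotated gene. Reads of 29 to 31 nt made up 52.4% and 50.3% of the antisense reads of these 28 members, beside 66.4% and 66.1% on the chromosome 10 stretch, and the median was 29 nt in both.

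Reads piled up at few positions in some of these members and not in others. In Gm7787, 69.2% of the reads started in 1 window of 50 nt, in Gm9731 68.0%, in Gm43959 58.4% and in CT025671.2 46.3%. The fullest window held 13.9% of the reads in Gm48009, 16.4% in Gm12904 and 11.3% in Gm47366. In the plot of read starts, the fullest window was the same in both tables for Gm7787, Gm9731, Gm43959, CT025671.2 and Gm12904, but not for Gm48009 and Gm47366, where several windows were close.

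**Figure D2:**
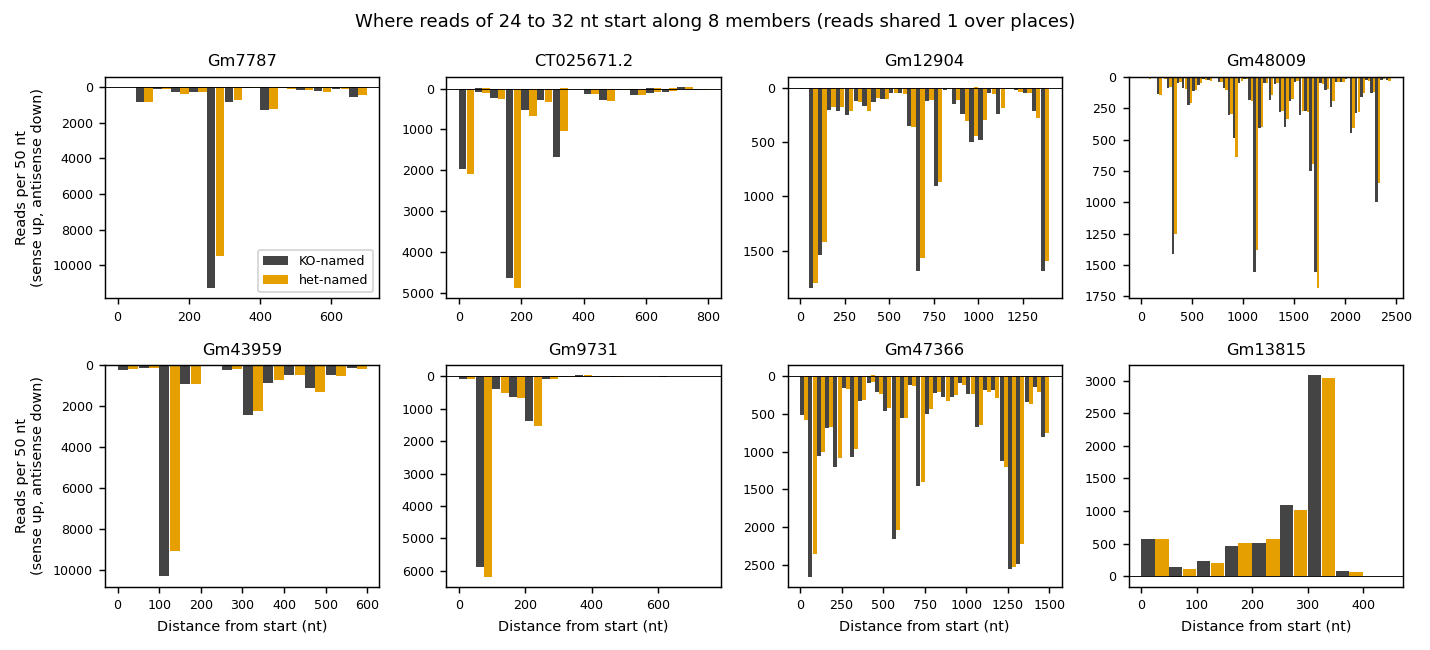
Read starts of 24 to 32 nt along 8 members in windows of 50 nt from the member's start (x, nt), with reads of the sense strand above and of the antisense strand below the line (y, reads, scale differs by panel), for the KO-named (grey) and het-named (orange) table. Gm7787, Gm9731 and Gm43959 each have 1 dominant window, with 69.2%, 68.0% and 58.4% of their reads, and Gm13815 is the sense example.

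How well the antisense reads fitted the parent mRNA differed widely between the 21 members with a coding parent in the same direction. For these 21, 11.5% (11.4 to 11.7) of the antisense reads matched a parent transcript exactly, 27.0% with up to 1 mismatch, 37.3% with up to 2 and 44.0% with up to 3. A wider count took all 178 members with a coding alignment in either direction, and matches to either strand of the best aligned coding gene. By it 17.8% (17.6 to 17.9) of the antisense reads matched exactly and 52.0% with up to 3 mismatches. In 9 of the 21 no antisense read matched exactly, and in 4 at least 90% did. In the next sentences each read of a member counts in full. Of the 35336 antisense reads of Gm7787, 24.2% matched Spin1 exactly and 86.3% with up to 1 mismatch. Of 23255 of Gm12904, 8.48% matched Ago2 exactly and 55.3% with up to 3 mismatches. Of 20878 of CT025671.2, 3.56% matched Pphln1 exactly and 56.7% with up to 2 mismatches. Of 17578 of Gm9731, 0.165% matched Ccnq exactly and 23.2% with up to 3 mismatches, while a second copy of that gene, Gm8342 (30.73 and 26.05 RPM), had 1.11% and 94.0%. Plk-ps1, a copy of the mitotic kinase gene Plk1, had 5.68 and 5.38 RPM, and 87.7% of its antisense reads matched with up to 3 mismatches. The reads of Gm48009, Gm47110, Gm18637, Gm49147 and Gm12982 had a median of at least 9 mismatches to the best aligned coding gene. Of the reads of Gm18637 99.9% were antisense and 0.152% had 1 place.

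**Figure D3:**
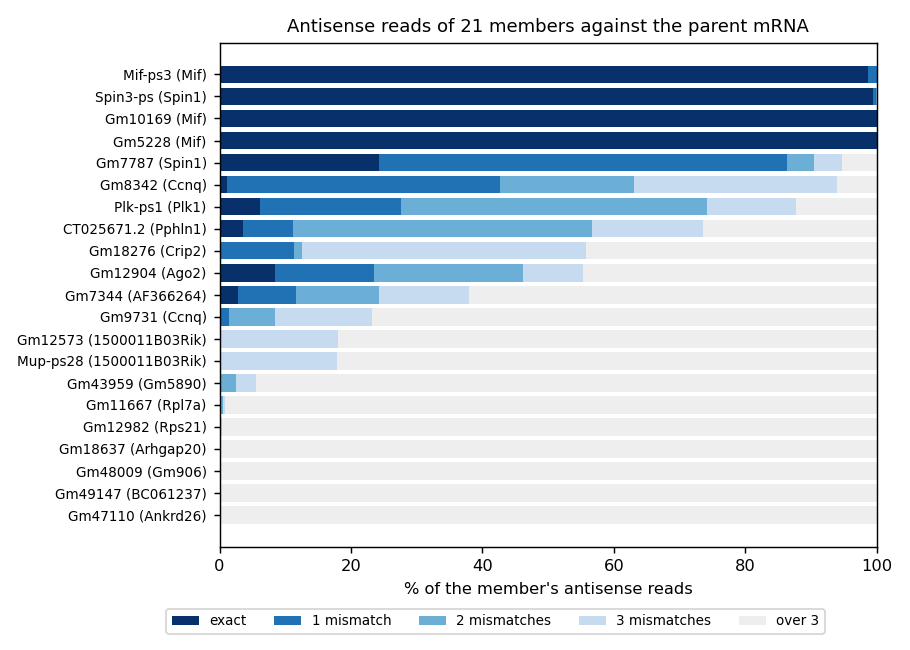
Antisense reads of the 21 mainly antisense members whose parent (in parentheses) aligns in the same direction, as the percent (x) that matched the parent mRNA exactly or with 1, 2, 3 or more mismatches without gaps. Copies of Mif and Spin3-ps matched exactly in nearly all reads, and at the other end no read of Gm47110 matched within 3 mismatches.

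The copies of Mif, which encodes a secreted cytokine, formed a family of 5 members on 5 chromosomes. Gm10169 (chromosome 7, 29965218 to 29965565), 99.1% identical to Mif, had 122 and 114 RPM and 98.9% antisense reads. All of its 30330 antisense reads also matched Mif exactly, and 1 read had 1 place. All of them lay in an exon of C230062I16Rik on the opposite strand. Gm5228 (8.82 and 6.58 RPM), Mif-ps3 (2.57 and 2.30 RPM), Gm16379 (19.8 and 15.2 RPM) and Gm8762 (4.59 and 3.93 RPM) had 97.6%, 95%, 88.7% and 74.7% antisense reads, of which at least 98.6% matched Mif exactly. Mif itself had 13949 and 14557 antisense reads by equal sharing. Of these, 3597 and 3916 had 1 place, beside 15 and 10 sense reads with 1 place. Spin1 had 13317 and 13139 antisense reads with 1 place and 1321 and 1372 sense ones, and its copy Spin3-ps (22.8 and 16.8 RPM) had 6 reads with 1 place. For Ago2 the order was the reverse, with 25148 and 24058 sense reads with 1 place and 421 and 384 antisense ones. Ccnq had 575 and 530 antisense and 362 and 352 sense reads with 1 place, and Pphln1 21 and 32 antisense and 1197 and 1204 sense ones.

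The mainly sense members mostly had a coding parent and shared their reads with it. Of the 82, 76 had a coding parent in the same direction, and in 54 of these at least 99% of the sense reads matched the parent exactly. In 56 of the 82 under 1% of the reads had 1 place, and in 40 no read had. For those members the reads cannot be assigned to the pseudogene or to its parent. Ribosomal protein genes, counted by the parent's symbol, gave 34 members from 15 parents, 32 of them mainly sense and 2 (Gm11667 of Rpl7a and Gm12982 of Rps21) mainly antisense, and 30 had under 1% 1-place reads. The list of RNA binding proteins gave 4 members (3 copies of Ddx21 and 1 of Ybx1), chromatin and histones 2 (copies of Hist3h2ba and Hist1h2bq), and the respiratory chain 1 (Cox6c2). Translation factors, glycolysis, chaperones and proteasome, cytoskeleton and germ line piRNA factors gave 0 each, and 62 of the 103 members with such a parent were in no list. The lists were chosen with earlier results of these data known and describe the parents only.

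Some mainly sense members had mostly reads with 1 place among annotated transcripts. Matches elsewhere in the genome were not sought. In 12 of the 82 at least 50% of the reads had 1 place. Gm13815 (chromosome 2, 92561269 to 92561680) is a copy of Rps27a, which encodes ubiquitin fused to ribosomal protein S27a. It had 114 and 96.9 RPM and 11110 reads with 1 place, beside 142 and 146 such sense reads of Rps27a itself. The other 7 members of that family had at most 11.2 and 9.56 RPM. Of the sense reads of Gm13815 39.6% matched Rps27a exactly and 84.6% with up to 1 mismatch. Gm44690 (chromosome 7, 69883979 to 69884360), a copy of the purine synthesis gene Paics, had 53.1 and 46.4 RPM, with 99.98% 1-place reads and 1 of 5787 sense reads that matched Paics. Gm47362 on the chromosome 10 stretch had 39.4 and 33.4 RPM, Gm18514 (Crb1, a cell polarity gene) 12.8 and 10.8 RPM, Gm8702 (Pomp, a proteasome assembly factor) 10 and 9.10 RPM, and Gm48157 8.04 and 7.09 RPM. Gm6088, the second copy of Ago2 among the members, lies in the other class: it had 5.6 and 4.62 RPM, 4.08% antisense reads and 4.04% 1-place reads, and 98.2% of its sense reads matched Ago2 exactly.

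The largest family by number joined 59 members on 10 chromosomes through shared reads, and all 59 were mixed, with 27.6% to 71.3% antisense reads. It held 9.31% of the member reads, 429 RPM (KO-named) and 393 RPM (het-named), at 209 to 1558 reads per member. Of its members 30 were 3800 to 3900 nt long, and 5.91% of its reads had 1 place. The median read of a member had 22 to 84 places, with a median of 43 over the members. None of the 59 had a coding parent in the same direction. Of them 56 aligned best to a coding transcript on the opposite strand, including 32 to D10Wsu102e and 19 to Vmn2r53. The other 3 aligned to untranslated sequence, 2 of them to that of Vmn2r53. Gm48493 had the most reads of the family, 14 and 12.7 RPM, of which 30.4% were antisense. The processed pseudogene type thus covers entries with no usable parent, and what these repeated sequences are was not tested. Outside this family and the chromosome 10 stretch, 14 members were mixed, led by Gm48368 with 104 and 91.4 RPM and 30.7% antisense reads. AC124237.1, Gm47924 and Gm48113 formed a family of their own, with 57.5% to 69.9% antisense reads, and aligned best to Tmem72 on the opposite strand. Gm7535, a copy of the condensin gene Ncaph2, had 15.2 and 12.7 RPM and 44.7% antisense reads, of which 59.4% matched Ncaph2 exactly.

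First bases differed by strand. Of the antisense reads of all members 88.8% (KO-named) and 87.3% (het-named) began with U, and of the sense reads 75.1% and 74.9%, beside 78.9% and 73.7% of all reads of 24 to 32 nt. Summed over both tables, antisense reads began with U in 73.5% over all 4552 genes, 89.7% in unprocessed and 89.9% in transcribed processed pseudogenes. In the 77 mainly sense members outside the chromosome 10 stretch, 86.4% of the sense reads began with U in both tables. In the other kinds the sense reads had U in 51.9% to 65.6% and more often A at base 10. Sense reads had A at base 10 in 58.0% and 57.0% on the chromosome 10 stretch, in 63.7% and 63.4% of the other mainly antisense members, in 64.2% and 63.5% of the other mixed ones and in 61.0% and 59.8% of the family of 59. In the 77 mainly sense members outside the chromosome 10 stretch the share was 25.4% and 25.9%. In the 5 on the stretch, which also count in its value above, it was 47.1% and 43.8%, and over all reads of 24 to 32 nt 29.6% and 29.9%. By the sum of both tables, sense reads had it in 29.1% over all 4552 genes. The share was 63.4% in unprocessed and 25.5% in transcribed processed pseudogenes. Antisense reads had A at base 10 in 45.71% and 46.18% in the family of 59 and in 40.97% and 41.27% of the other mixed members. On the chromosome 10 stretch the antisense share was 32.96% and 32.33%, and in the other mainly antisense members 20.4% and 19.97%. The few antisense reads of the 77 mainly sense members outside the stretch (202 and 197) had it in 54.1% and 53.18%. Among sense reads that did not begin with U, A at base 10 reached 84.7% and 83.8% on the chromosome 10 stretch and 83.6% and 81.9% in the family of 59. In the 77 mainly sense members outside the stretch it was 27.6% and 26.5%. The 5 mainly sense members on the stretch had 82.9% in both tables, and all 82 together 38.4% and 36.9%. Among antisense reads that did not begin with U, it was 59.71% and 57.14% in the family of 59 and 68.67% and 67.62% in the other mixed members. It was 19.09% and 20.02% on the chromosome 10 stretch and 26.52% and 21.51% in the other mainly antisense members. The minor sense reads of mainly antisense members were few, 512 and 562 reads on the chromosome 10 stretch and 439 and 450 elsewhere.

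**Figure D4:**
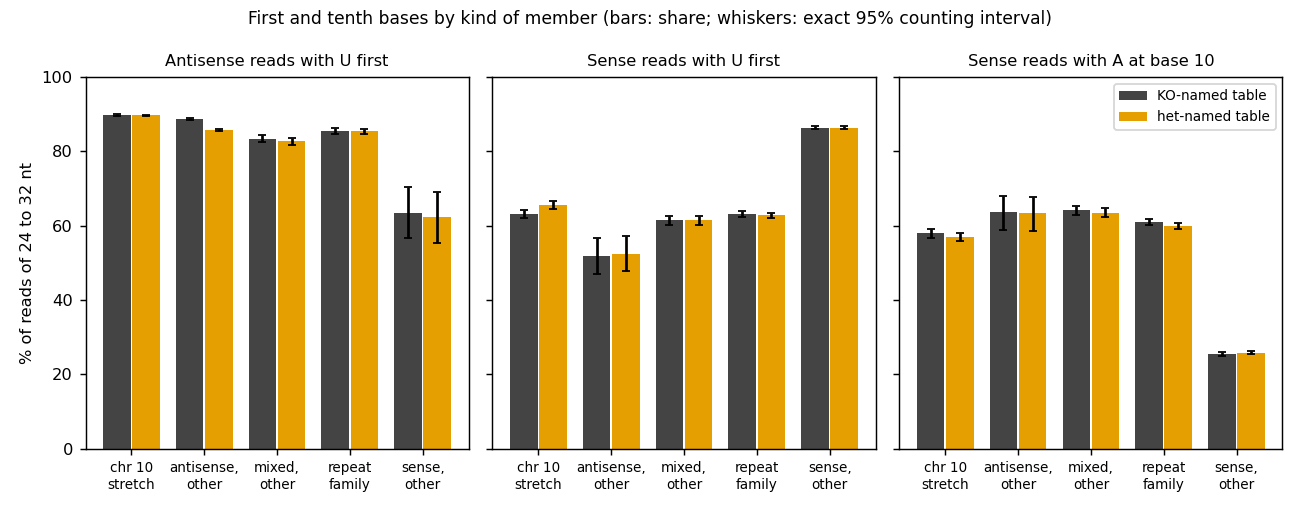
Percent of reads of 24 to 32 nt (y) with U at base 1 among antisense and sense reads and with A at base 10 among sense reads, for 5 kinds of member (x) in the KO-named (grey) and het-named (orange) table; whiskers are exact 95% counting intervals. Sense reads of the 77 mainly sense members outside the chromosome 10 stretch stand lowest in A at base 10, at 25.4% and 25.9%.

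Reads of opposite strands overlapped by 10 nt more often than by the lengths next to it. Among position pairs that overlapped by 1 to 20 nt, weighted by the product of their reads, 18.2% and 17.8% in the family of 59 overlapped by 10 nt, 8.28% and 7.25% by 9 nt and 5.01% and 5.22% by 11 nt. In the other mixed members the 10 nt overlap took 33.9% and 35.0%, in the other mainly antisense ones 38.3% and 36.8%, and in the other mainly sense ones 20.4% and 20.6%. On the chromosome 10 stretch it took 22.4% (KO-named) and 16.3% (het-named), and in the second of these another overlap took 17.4%. By number of position pairs, each counted as 1 whatever its reads, 10 nt was the commonest overlap in all 5 kinds in both tables, at 6.40% to 8.40%. A pair of sequences with many places can count at each of them, so these pairs are not independent. The pair with the largest product in the family of 59, seen in Gm43540, is printed with its first 10 bases, which pair with each other, in capitals.
Gm43540 sense: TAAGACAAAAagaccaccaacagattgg
Gm43540 antisense: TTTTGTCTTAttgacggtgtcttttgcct
The sense read (chr5:11463525-11463552, GRCm38) was counted 69 times (KO-named) and 90 times (het-named) and the antisense read (chr5:11463506-11463534) 168 and 167 times. Both have 29 places, and both begin with T and have A at base 10.

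A few members did not look like the rest in their first base. In 6 of the 199 under 50% of the reads began with U. Gm12895 and Gm12896 on chromosome 4 share every read and had 27.9 (KO-named) and 47.6 RPM (het-named) each. All their reads were antisense and 0.0111% began with U. Their commonest read, of 26 nt, is shown because it accounts for 30.2% of the reads of Gm12895 and begins with C.
Gm12895 antisense: Cccccggtggggcggggggcccggac
It lies at chr4:122455274-122455299 (GRCm38) and had counts of 917 (KO-named) and 1804 (het-named). Gm11667, the copy of Rpl7a, had U first in 26.3% of its reads, and 1 read accounted for 36.6% of them. The highest first-U shares were 98.1% in Gm18716, 96.9% in Gm17205 and 96.7% in Gm18753, a copy of Rangrf. Whether reads without these marks are bound by PIWI proteins was not measured.

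On the RPM scale no member reached a log2 ratio of 1 in size between the tables. The rule used the sum of the tables, not their ratio. By log2 ratio of KO-named over het-named RPM, with 0.5 reads added to each count, 0 of 199 members were at or above 1 and 0 at or below -1, while over all 4552 genes 0.022% were at or above 1 and 0.33% at or below -1. With so few genes past these limits, 0 is near the background. The median log2 ratio of the members was 0.17, beside 0.20 for all genes. Of the members 186 were above 0 and 13 below, beside 3939 and 613 of the 4552 genes. That direction depends on the scaling: scaled to miRNA reads, the median of all genes moved to -0.05 and that of the members to -0.08. Then 61 members were above 0 and 138 below, beside 1711 and 2841 of all genes. By kind, the median was 0.25 on the chromosome 10 stretch, 0.21 in the other mainly antisense members, 0.12 in the family of 59 and 0.24 in the other mainly sense members. The highest ratio was that of Gm12957, a copy of Hist1h2bq, with 2.26 and 1.48 RPM and a log2 ratio of 0.61. The lowest were those of Gm12895 and Gm12896, with a log2 ratio of -0.77, and scaled to miRNA reads it was -1.02. Of the members with most reads, Gm7787 had a log2 ratio of 0.40, Gm43959 0.32, Gm47366 0.26 and Gm9731 0.11. With 1 library per table, none of these differences can be set against the spread between animals.

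**Figure D5:**
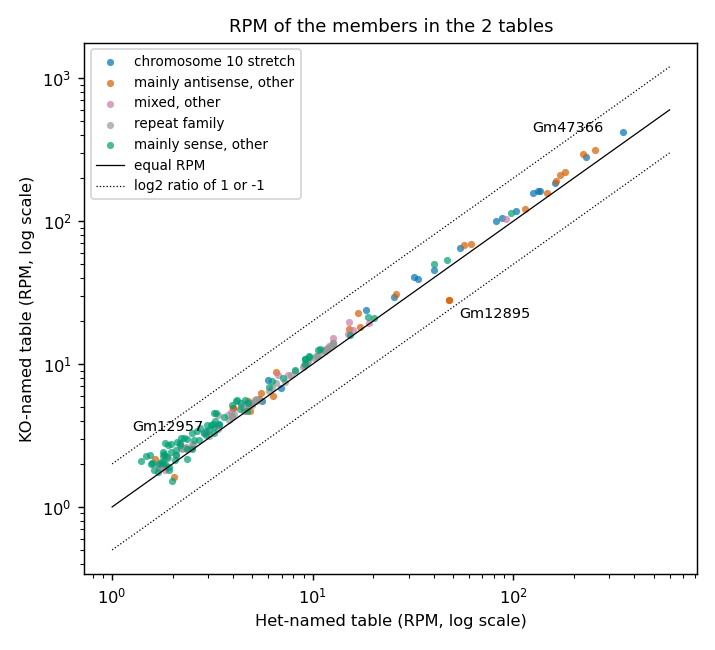
RPM of each of 199 members in the het-named (x) and KO-named (y) table, both on log scales, by kind of member; the solid line marks equal RPM and dotted lines a log2 ratio of 1 or -1. All members lie between the dotted lines, with Gm12895 the farthest below equality at a log2 ratio of -0.77.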

How the data were processed

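Small RNA of 2 libraries was analysed from the deposited tables, which list each distinct read sequence with its raw read count and no scaling, as the values show. The sources used here name no trimming or filtering tool. Reads of 24 to 32 nt were matched with 0 mismatches to GENCODE M21 transcripts (GRCm38) on both strands by a C++ program (g++ 11.4.0). A genome sequence was not used, so places are positions within annotated transcripts, and reads from elsewhere are missed. A read with 1 place can thus have further matches outside these transcripts. Of the reads of that size, 17.0% (KO-named) and 16.1% (het-named) matched a transcript. Each read was shared equally over its places, and 102 sequences with over 2000 matches were left out. A place inside 2 members counted singly in sums over members.

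A parent is the coding gene of the highest blastn 2.17.0 score with at least 100 aligned bases that does not overlap the pseudogene. For counts by parent it also had to align in the same direction over at least 100 coding bases. Families joined members of which either shared 50% of its reads with the other. The chromosome 10 stretch joined members with gaps of at most 1 Mb. Intervals are Clopper-Pearson, and those of ratios conditional binomial. RPM are reads per 1000000 reads of a table. Tables and figures used Python 3.11.15 with matplotlib 3.10.9, scipy 1.17.1, pandas 2.3.3 and numpy 2.4.6. On simulated data, 2000 of 2000 reads cut from member transcripts were placed on their gene and strand, which checks the calculation only.

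Named members were the 12 with most reads, the 6 mainly antisense and 6 mainly sense with most 1-place reads, the extremes of log2 ratio and of first-U share, and their parents. All other members named were chosen after their values were seen. The members and lists were chosen with earlier results of these data known. PCR reads are not independent molecules.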

Additional observations from a re-analysis of the deposited data

How the results depend on the processing

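No paired analysis was possible because each table is 1 library and neither was put in a genotype group. The number of members, 199 by the rule, was 311 with a minimum of 100 reads, 115 with 500, and 49 when 1-place reads alone counted. Among the 145 of the 199 members with any 1-place read, 51 were mainly sense by such reads alone, rather than 82 of the 199 by all reads, and with a limit of 50% antisense 64 rather than 40 were antisense. The first-U share of antisense reads, 88.1%, was 90.7% for 1-place reads, 68.0% for distinct sequences, 88.6% for 26 to 32 nt and 90.1% without Gm12895 and Gm12896. That of sense reads, 75.0%, was 77.9%, 54.1% and 75.3% under the first 3 of these. The median log2 ratio, 0.17, was 0.091 scaled to 24 to 32 nt reads, -0.076 scaled to miRNA reads, 0.21 for 1-place reads, 0.23 without the family of 59 and 0.22 with 1 member per family. The 1-place value covers all 145 members with any such read, however few. It is the value that equal counts in both tables give. For 178 members, the share of antisense reads that matched either strand of the best aligned coding gene exactly was 17.8%. It was 34.7%, 45.1% and 52.0% with up to 1, 2 and 3 mismatches. Antisense to a coding parent in the same direction, the exact share for the 21 mainly antisense members was 11.5%. The last value, the family settings and the setting without Gm12895 and Gm12896 were chosen after seeing the data. Fewer reads enter under 1-place counting. Rescaling moves every log2 ratio by the same amount. A lower minimum can only add members, and allowing more mismatches can only raise a match share. The cause of the other shifts was not tested. Of 25 named log2 ratios, 12 changed sign when scaled to miRNA reads, and 0 when scaled to 24 to 32 nt reads. Members near 200 reads had wide ratio intervals.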
